A study of Mus musculus and Homo sapiens with 8 samples.

Results

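Interferon response genes are the genes that cells switch on after interferons, secreted proteins that signal viral infection, bind their receptors. Receptor-bound Janus kinases then phosphorylate STAT proteins, and a complex that includes STAT2 and IRF9 enters the nucleus and binds an element shared by many of these promoters. Their products sense viral RNA, cut it, block its translation or mark viral proteins, and others dampen the signal. Hematopoietic stem cells are known to carry a basal level of many of these transcripts, and strong interferon signalling is known to drive such cells out of quiescence.

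The 34 genes described here were taken by symbol from a fixed list, with no cut on their values. The list was chosen with earlier results of these data known. The human tables list 20296 genes and 32 of these members. In the mouse tables the same symbols are listed in mouse spelling, with Oas1a and Oas1g standing for OAS1, which gives 34 symbols among 17097 genes. PSMB8 and PSMB9 are not listed in the human tables and Oasl is not listed in the mouse tables, so these were not analysed here. Every listed member passed the filter on low counts, 32 in the human and 34 in the mouse fit.

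RNA sequencing was done in 2 experiments on loss of ANP32B, a nuclear histone-binding phosphoprotein, which the series' title sets beside p53 in stem cells. KU812 is a chronic myelogenous leukemia line, and it carried a hairpin against ANP32B (shANP32B, 2 libraries) or a control hairpin (shNC, 2 libraries). LSK cells are a bone marrow gate of cells with no lineage markers that carry Sca-1 and c-Kit, and they came from C57BL/6 mice that were Anp32b-KO (2 libraries) or WT (2 libraries). The labels give no age, no Cre line, no account of the deleted exons and no hairpin sequence. They do not say that the 2 libraries of a group came from separate animals or cultures. The p-values therefore speak of library-to-library spread, some of which may be technical.

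Library totals were 24416691 to 28209409 counts in KU812 cells and 10549358 to 15683480 in LSK cells. The targeted gene was lower in each perturbed library: ANP32B stood at 40.3 and 38.1 CPM (counts per a common, scaled library total) in shANP32B cells, against 250 and 285 CPM in shNC cells, and Anp32b at 201 and 248 CPM in KO cells, against 793 and 730 CPM in WT cells. The LSK libraries held the gate's own markers, with Kit between 334 and 399 CPM and Ly6a, the gene of Sca-1 and itself interferon-inducible, between 37.8 and 60.2 CPM. KU812 libraries held the basophil and mast cell genes HDC, between 1092 and 1255 CPM, and FCER1A, between 593 and 787 CPM. In bulk RNA, fewer expressing cells and less RNA per cell cannot be told apart.

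In KU812 cells with ANP32B knocked down the interferon response genes did not move as a block. OAS3, USP18 and IRF1 rose, TRIM25 and IFIT1 fell, and 27 of 32 members did not pass the test. Calls were made with edgeR's quasi-likelihood test at an adjusted p under 0.05, over all 16529 genes tested. The 3 members that rose are 9.38% of the 32, where 7.53% of all genes tested rose, and the 2 that fell are 6.25%, where 9.06% of all genes tested fell. The median log2 fold change over the members was 0.059, beside 0.0041 over all genes tested. In 12 members (37.5%) both shANP32B libraries lay above both shNC libraries, as did 29.5% of all genes tested. In 4 members (12.5%) both lay below, as did 28.9% of all genes tested.

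**Figure D1:**
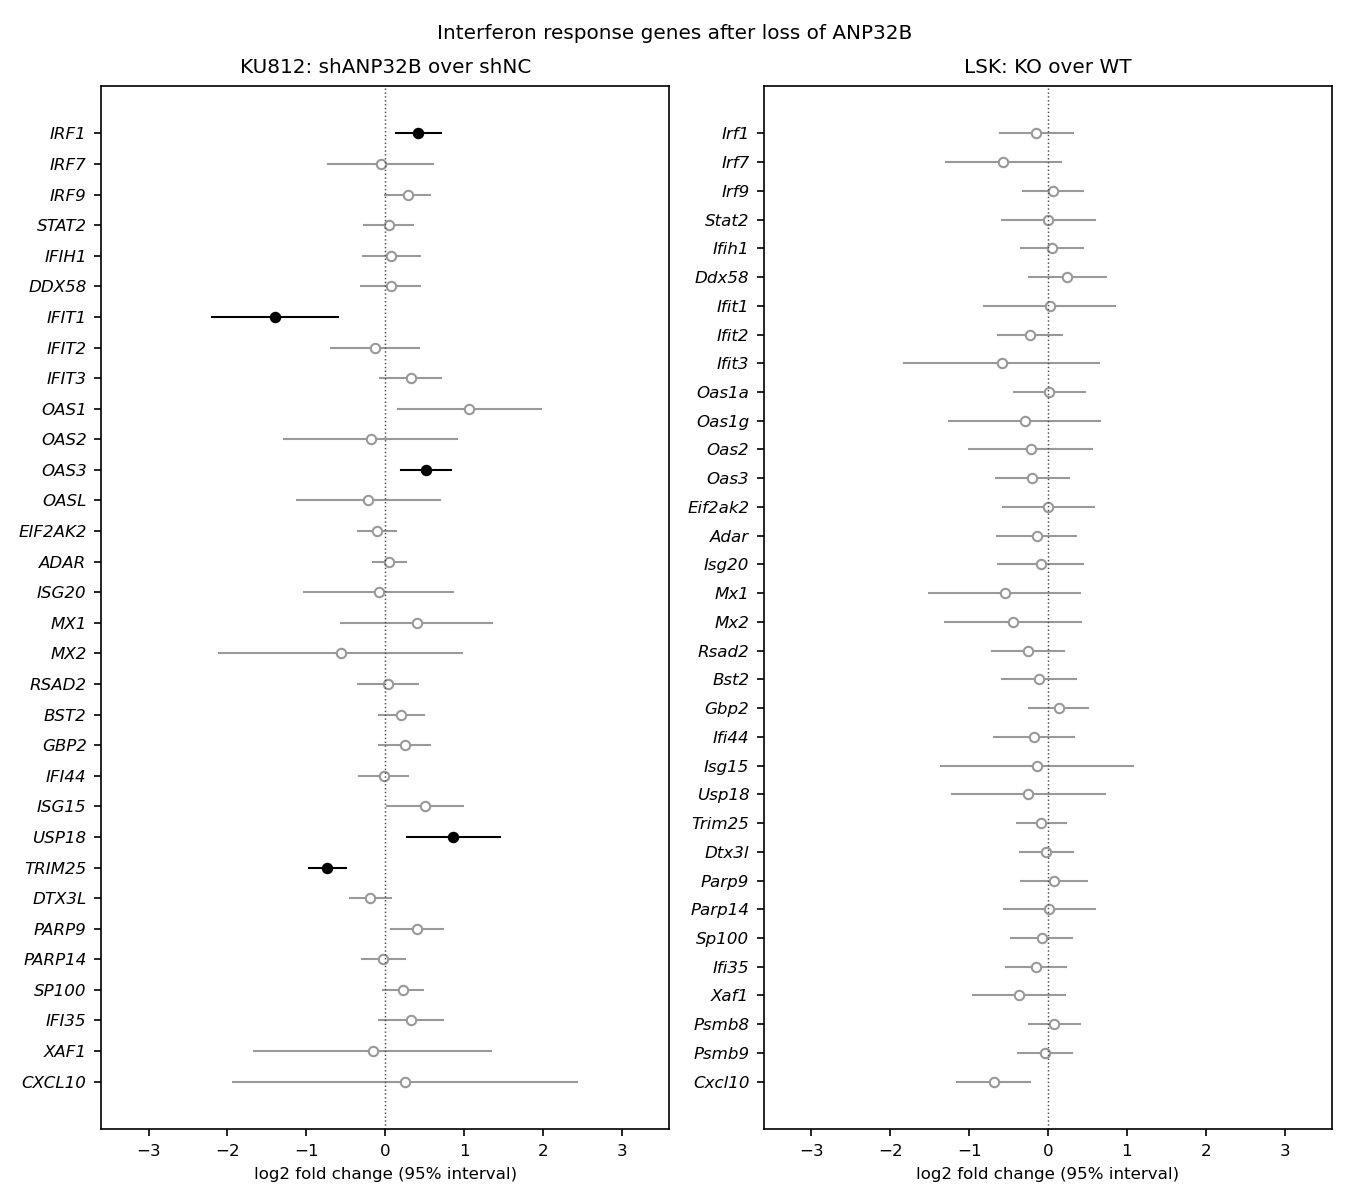
Log2 fold change (x axis) of each member (rows, ordered by role) with its 95% interval, in KU812 cells (left, shANP32B over shNC) and LSK cells (right, KO over WT). Black filled points passed an adjusted p under 0.05, which 5 members did in KU812 cells and 0 in LSK cells.

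TRIM25 is a ubiquitin ligase known to modify the RNA sensor RIG-I and to help switch it on. It was read at 105 and 97.0 CPM in shANP32B cells, against 169 and 168 CPM in shNC cells, so the groups were far apart and each pair was close. The log2 fold change was -0.73 (SE 0.11; adjusted p = 6.83e-04, edgeR). It is the 1 called member that kept its call as each library was left out in turn, with log2 fold changes from -0.80 to -0.69.

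USP18 removes the ubiquitin-like protein ISG15 from its targets and is also known to block the type I interferon receptor. It was read at 9.48 and 10.7 CPM in shANP32B cells, against 4.18 and 6.95 CPM in shNC cells, both perturbed libraries above both controls although the shNC pair differed 1.66-fold. The log2 fold change was 0.86 (SE 0.27; adjusted p = 0.0459, edgeR). ISG15 itself was read at 10.5 and 12.3 CPM in shANP32B cells, against 8.65 and 7.4 CPM in shNC cells. The groups did not overlap, but its log2 fold change of 0.50 (SE 0.22) did not pass the test (adjusted p = 0.143, edgeR).

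Among the RNA-directed effectors 1 of 10 rose and 1 fell. IFIT1, which binds viral RNA that lacks the host's cap methylation, was read at 39 and 36 counts (1.5 and 1.45 CPM) in shANP32B cells, against 119 and 87 counts (4.25 and 3.54 CPM) in shNC cells. The perturbed libraries were nearly equal and both below the controls, at -1.40 on the log2 scale (SE 0.37; adjusted p = 0.0202, edgeR). Its relatives IFIT2 and IFIT3 had log2 fold changes of -0.13 and 0.32, neither past the threshold. The IFIT genes resemble each other, and the labels do not say how shared reads were counted.

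OAS3, an enzyme that makes the 2-5A signal that activates RNase L, was read at 42.3 and 41.3 CPM in shANP32B cells, against 32.2 and 26.2 CPM in shNC cells. The log2 fold change was 0.52 (SE 0.15; adjusted p = 0.0279, edgeR). OAS1 was read at 3.24 and 3.67 CPM in shANP32B cells, against 2.22 and 1.06 CPM in shNC cells. Both perturbed OAS1 libraries lay above both controls, but the controls differed more than 2-fold, and the log2 fold change of 1.07 (SE 0.42) did not pass (adjusted p = 0.102, edgeR). OAS2 and OASL stood at -0.19 and -0.21, with overlapping groups. The kinase gene EIF2AK2, whose product PKR halts translation, stood at -0.10 and the RNA-editing enzyme gene ADAR at 0.051.

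**Figure D2:**
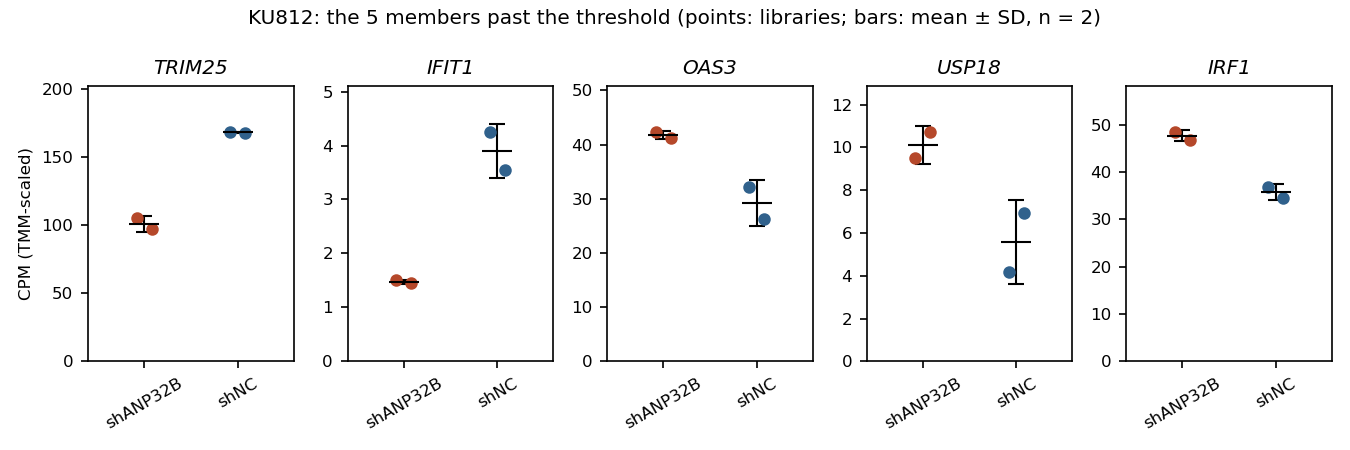
CPM (y axis, from 0) of the 5 members past the threshold in KU812 cells, with a point per library and the mean ± SD (n = 2) as bars, shANP32B left and shNC right. TRIM25 and IFIT1 lie lower in both shANP32B libraries and OAS3, USP18 and IRF1 higher, with the widest shNC spread relative to its mean in USP18.

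Of the 4 transcription factors, IRF1, an early activator that interferon gamma induces, rose modestly. It was read at 48.5 and 46.8 CPM in shANP32B cells, against 36.9 and 34.5 CPM in shNC cells, a log2 fold change of 0.42 (SE 0.13; adjusted p = 0.0459, edgeR). IRF9, the DNA-binding partner of STAT2, was read at 47.3 and 46.0 CPM in shANP32B cells, against 39.6 and 36.8 CPM in shNC cells. Its groups did not overlap either, but 0.29 on the log2 scale (SE 0.13) did not pass (adjusted p = 0.16, edgeR). STAT2 and IRF7, the amplifier of type I interferon, stood at 0.044 and -0.060 with overlapping groups.

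The other members gave no call. The RNA sensors IFIH1 and DDX58 (MDA5 and RIG-I) stood at 0.079 and 0.067. The 6 effectors against virus entry, copying and release ranged from -0.56 in MX2 to 0.40 in MX1, with BST2, the tether of budding virus, at 0.21 and RSAD2, the radical-SAM enzyme viperin, at 0.034. The 6 nuclear and ADP-ribosylation genes ranged from -0.19 in DTX3L to 0.40 in PARP9. These last 2 encode partners in 1 complex, and both shANP32B libraries lay below the controls in DTX3L and above them in PARP9. CXCL10, a chemokine that draws T cells, was near the limit of reading, with 14 and 4 counts in shANP32B cells against 15 and 1 in shNC cells, and XAF1 had 22 and 15 counts in shANP32B cells against 36 and 8 in shNC cells.

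The calls in KU812 cells were read again with each library left out. That leaves 1 library in a group, and the lone library was then taken to vary like the others. Of the 5 called members only TRIM25 kept its call in each of these fits. A call lost or gained there need not rest on the library left out. Log2 fold changes ran from -1.53 to -1.26 in IFIT1 and from 0.53 to 1.26 in USP18. Those of OAS3 and IRF1 ran from 0.37 to 0.67 and from 0.36 to 0.46. The adjusted p of USP18 and IRF1 was near the threshold in the full fit (0.0459 for each, edgeR). The member median was 0.23 without the first shNC library and 0.033 without the second. The edgeR test gave 9 members an unadjusted p under 0.05, and DESeq2 and limma-voom each called the 5 members named above.

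Upstream of these genes little passed in KU812 cells. Of 11 interferon ligand genes 0 were listed. Of 5 receptor genes tested 0 passed, with log2 fold changes of -0.13 for IFNAR1, 0.040 for IFNAR2, 0.18 for IFNGR1, 0.12 for IFNGR2 and -0.11 for IL10RB. Of 5 signal transducers STAT3 rose, at 419 and 413 CPM in shANP32B cells, against 323 and 313 CPM in shNC cells (log2 fold change 0.39, SE 0.097, adjusted p = 0.0157, edgeR), a call lost without either shANP32B library. JAK1, JAK2 and TYK2 stood at 0.25, -0.33 and 0.032.

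Some nucleic acid sensors and regulators changed. Of 12 tested sensor and adaptor genes 1 rose and 3 fell, which is 8.33% and 25% of the list, where 7.53% of all genes tested rose and 9.06% fell. TLR3, the endosomal sensor of double-stranded RNA, was read at 1.58 and 1.25 CPM in shANP32B cells, against 0.25 and 0.285 CPM in shNC cells. AIM2, an inflammasome sensor of cytosolic DNA, was read at 1.04 and 1.33 CPM in shANP32B cells, against 6.68 and 3.42 CPM in shNC cells. The DNA sensor gene MB21D1 (cGAS) and the RIG-I adaptor gene MAVS fell by 0.39 and 0.34 on the log2 scale. The TLR3, MB21D1 and MAVS calls were lost without either shANP32B library, and the MAVS call also without the first shNC library. Of 11 brakes on the pathway 2 (18.2%) fell and 0 rose, namely the phosphatase gene PTPN1 (-0.66, kept as each library was left out) and IRF2BP2 (-0.38, lost without either shANP32B library or the first shNC library). Of 4 genes that act in ISG15 conjugation 2 (50%) fell, the ligase gene HERC5 (-0.72) and UBE2L6, the E2 enzyme gene (-0.41). With lists this short a share rests on very few genes. Both calls were lost without the second shANP32B library, that of UBE2L6 also without the first, and that of HERC5 also without the first shNC library.

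A wider list of 68 tested interferon-stimulated genes outside the members held 11 that rose and 5 that fell, which is 16.2% and 7.35%, where 7.53% of all genes tested rose and 9.06% fell. The median log2 fold change was 0.23 over the list and 0.0041 over all genes tested. The 4 with the smallest p all rose and kept their calls as each library was left out. LGALS3BP, a secreted galectin-binding glycoprotein, was read at 89.4 and 85.0 CPM in shANP32B cells, against 30.3 and 31.0 CPM in shNC cells (log2 fold change 1.51, SE 0.13, adjusted p = 6.36e-06, edgeR). GBP5, a guanylate-binding protein that acts on intracellular pathogens, was read at 37.9 and 36.5 CPM in shANP32B cells, against 13.5 and 11.6 CPM in shNC cells (1.56). HLA-B, which presents peptides to T cells, was read at 136 and 118 CPM in shANP32B cells, against 68.8 and 49.6 CPM in shNC cells (1.10), and GBP3 at 33.5 and 36.0 CPM in shANP32B cells, against 17.0 and 15.3 CPM in shNC cells (1.10). GBP2, the member of that family, did not pass (0.25, SE 0.15, adjusted p = 0.293, edgeR). GBP4 kept its call as well, but the other 6 rises did not. PARP12, IFI16 and PSMB10 lost theirs without the second shANP32B library, and PARP10, CASP1 and TLR3 without either shANP32B library. The 5 that fell were IFI27, CCL5, EPSTI1, SAT1 and UBE2L6, of which EPSTI1 lost its call without the second shANP32B library and UBE2L6 without either. Those beyond the 4 smallest p were named after their values were seen. HLA and GBP genes are families of similar sequence, so their reads may be shared.

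Markers of cell state moved in the same KU812 libraries. Of 9 erythroid genes 4 fell and the list summed to 3053 and 3216 CPM in shANP32B cells, against 4081 and 4694 CPM in shNC cells. Of 10 basophil and mast cell genes CPA3 and TPSAB1 rose and CLC fell, and the list summed to 5412 and 5440 CPM in shANP32B cells, against 4668 and 4353 CPM in shNC cells. Of 6 listed T and NK cell genes 1 fell, NKG7, with sums of 143 and 119 CPM in shANP32B cells, against 171 and 149 CPM in shNC cells. Monocyte and macrophage genes summed to 65.4 and 79.3 CPM in shANP32B cells, against 74.8 and 71.0 CPM in shNC cells, and B cell genes to 8.52 and 7.98 CPM in shANP32B cells, against 8.79 and 7.89 CPM in shNC cells. Their part in the interferon gene values was not tested.

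In LSK cells no interferon response gene passed between KO and WT. Of 34 symbols tested 0 passed, as did 0 (0%) of all 14598 genes, and DESeq2 and limma-voom called 0 members as well. The edgeR fit did not call the deleted gene either, since Anp32b had a log2 fold change of -1.76 and an adjusted p of 0.148 (unadjusted p = 1.02e-05; DESeq2 adjusted p = 1.23e-22; limma-voom adjusted p = 0.0579). A count of 0 from this fit is therefore weak ground for saying that members did not change. Cxcl10 alone had an unadjusted p under 0.05 (edgeR), as did 4.5% of all genes tested. The log2 fold changes ran from -0.69 in Cxcl10 to 0.24 in Ddx58, 32 of 34 within 1.5-fold, with a median of -0.12 beside -0.0079 over all genes tested. In 1 symbol (2.94%), Psmb8, both KO libraries lay above both WT libraries, as did 17.7% of all genes tested. In 2 symbols (5.88%), Cxcl10 and Ifit2, both lay below, as did 15.6% of all genes tested.

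Cxcl10 was read at 20.6 and 17.6 CPM in KO cells, against 26.8 and 34.9 CPM in WT cells. The groups did not overlap, but the log2 fold change of -0.69 (SE 0.20) did not pass (adjusted p = 0.986, edgeR). It stayed negative, from -0.87 to -0.49, as each library was left out. The macrophage marker list, another cell type known to make this chemokine, summed to 75.0 and 91.8 CPM in KO cells, against 101 and 95.3 CPM in WT cells over 7 listed genes of 9, and the neutrophil and monocyte list to 1086 and 994 CPM in KO cells, against 1651 and 1485 CPM in WT cells over all 11. Their part in the Cxcl10 values was not tested. The members with the next smallest p were Irf7 at -0.57, Xaf1, a nuclear pro-apoptotic gene, at -0.37, Mx1 at -0.55 and Rsad2 at -0.26, none past the threshold (adjusted p = 0.986 for each, edgeR). In all 4 the lower WT library lay between the KO libraries or below both.

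**Figure D3:**
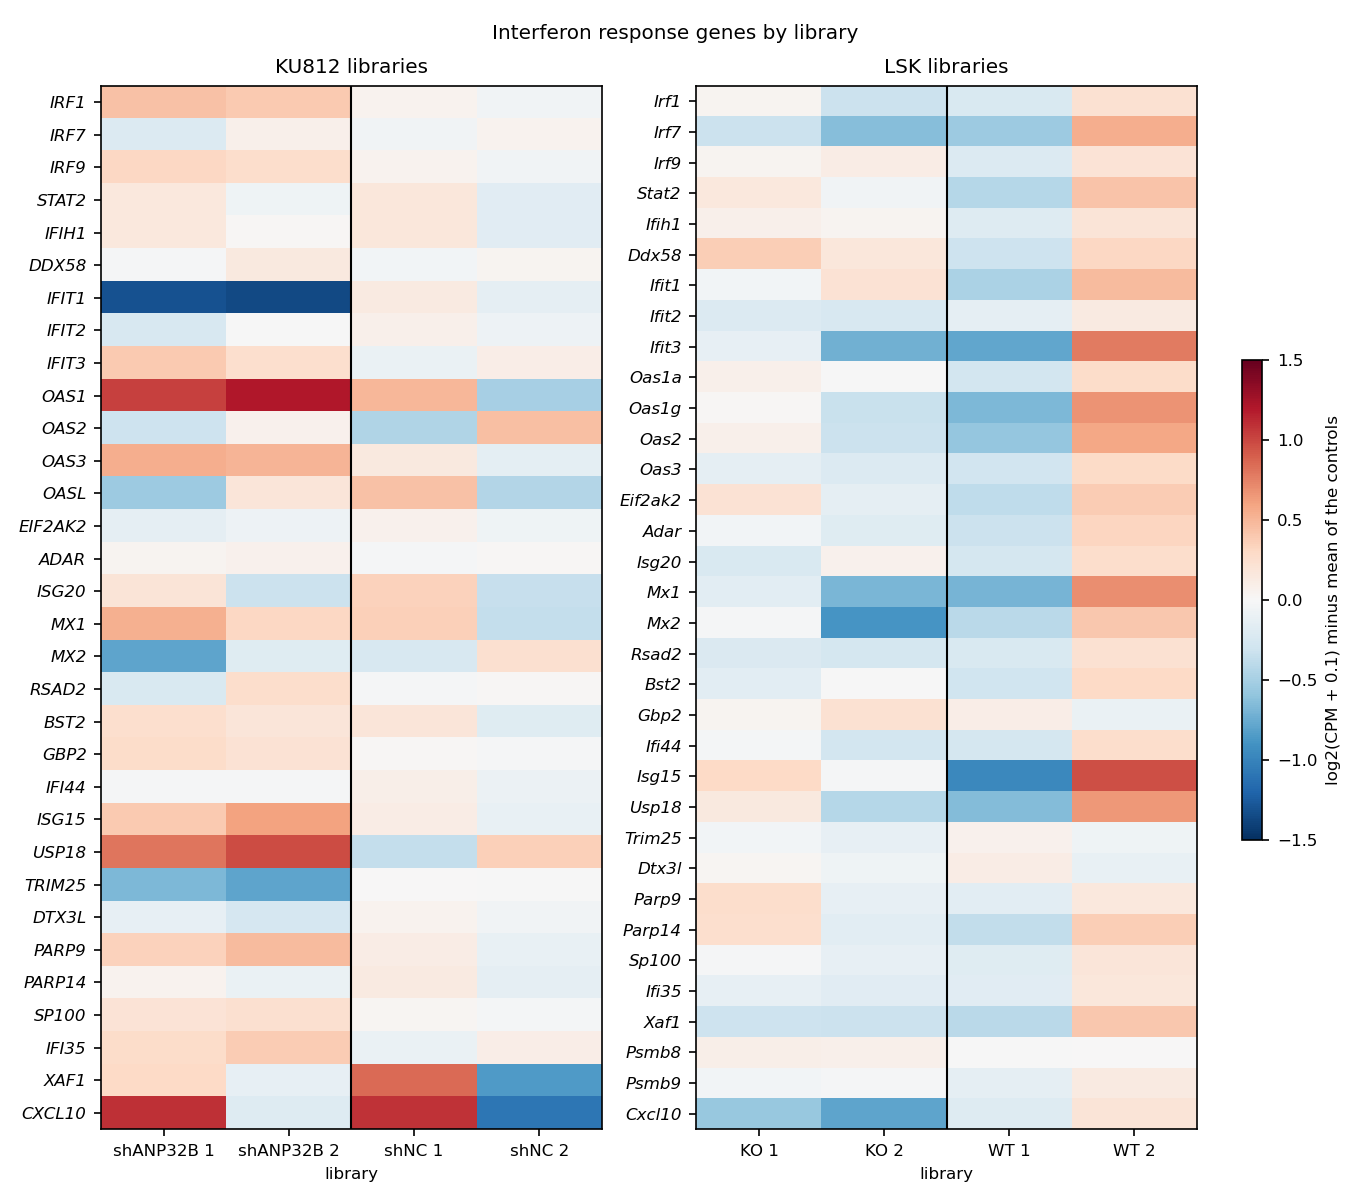
Colour gives log2(CPM + 0.1) of each member (rows) in each library (columns) minus the mean of that experiment's controls, with perturbed libraries left of the black line and controls right of it. In the LSK panel the columns WT 1 and WT 2 stand apart in most rows, with WT 2 the higher.

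The widest spread of these genes in LSK cells was inside the WT pair. In 31 of 34 symbols (91.2%) the second WT library was higher than the first, as it was in 47.4% of genes with at least 50 counts in a WT library. The median ratio of the second to the first WT library was 1.48 over the members and 0.984 over those genes. The exceptions were Gbp2, Trim25 and Dtx3l. Between the KO libraries the median ratio was 0.92, with the second higher in 6 of 34. In 21 of 34 symbols (61.8%) both KO libraries lay between the first and the second WT library, which held for 12.2% of those genes.

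In 7 members the second WT library was more than 2-fold above the first, 20.6% of 34, against 2.53% of all genes with 50 counts. Isg15, the ubiquitin-like modifier, was read at 16.5 and 13.2 CPM in KO cells, against 6.81 and 26.2 CPM in WT cells. Irf7 was read at 56.2 and 45.3 CPM in KO cells, against 48.3 and 102 CPM in WT cells. Mx1, a dynamin-like GTPase that blocks influenza virus and is known to be inactive in common laboratory mouse strains, was read at 21.3 and 14.7 CPM in KO cells, against 14.7 and 38.4 CPM in WT cells. In each the second WT library was the highest of the LSK libraries, and the first was the lowest in Isg15 and Mx1 and lay between the KO libraries in Irf7.

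The other 4 followed the same order. Usp18 was read at 14.5 and 9.77 CPM in KO cells, against 8.32 and 20.8 CPM in WT cells. Oas2 was read at 87.4 and 66.4 CPM in KO cells, against 55.6 and 124 CPM in WT cells. Oas1g was read at 12.8 and 10.1 CPM in KO cells, against 7.92 and 20.4 CPM in WT cells. Ifit3, with 63 and 48 counts in KO cells against 49 and 101 in WT cells, was read at 5.12 and 3.35 CPM in KO cells, against 3.21 and 9.63 CPM in WT cells. In 6 of the 7 both KO libraries lay inside the WT range, and in Irf7 the second KO library lay just under it. These 7 were picked for a WT pair more than 2-fold apart, so KO values inside that range do not show an unchanged level.

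**Figure D4:**
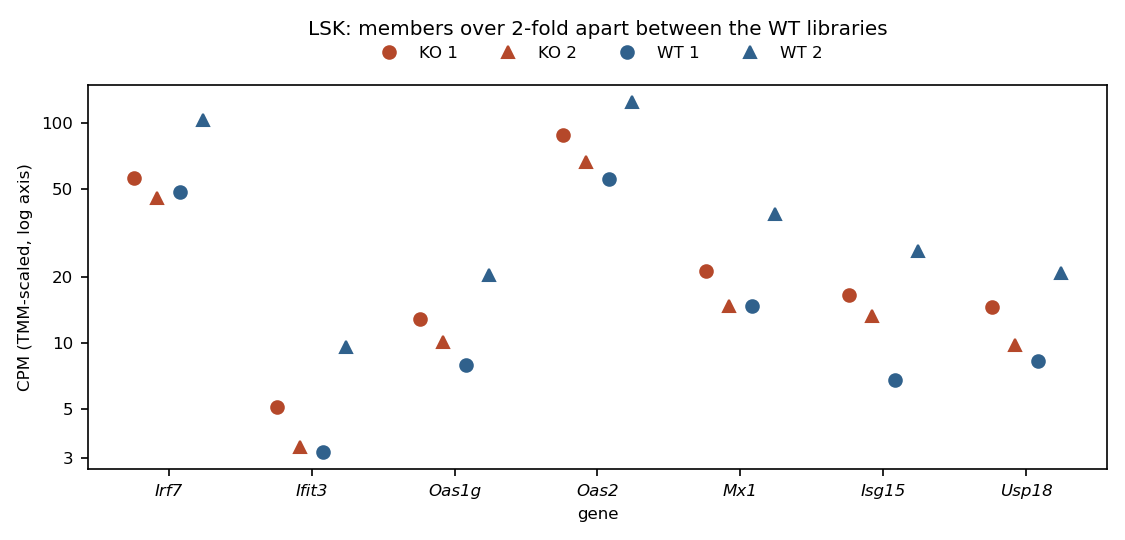
CPM (log y axis) of the 7 members that differed more than 2-fold between the WT libraries, with KO libraries in red left of WT libraries in blue and circles for the first library of each pair. WT 2 is highest for every gene, and WT 1 is lowest for every gene except Irf7, where KO 2 is.

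The sign of the KO comparison for these genes depended on which WT library was kept. Without the first WT library Isg15 and Irf7 had log2 fold changes of -0.83 and -1.02. Without the second WT library they had 1.12 and 0.067. The member median was -0.36 without the first and 0.19 without the second WT library. A change of these genes with genotype could not be detected beyond the spread between the WT libraries.

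Members that did not share the WT order were few. Trim25, the member with the firmest change in KU812 cells, was read at 113 and 107 CPM in KO cells, against 122 and 111 CPM in WT cells. Gbp2 and Dtx3l were the others. Psmb8, an immunoproteasome subunit gene, was read at 300 and 298 CPM in KO cells, against 282 and 283 CPM in WT cells, nearly level within each pair, with the second WT library 1.01-fold the first. The wider list shared the order in part. The second WT library was higher in 57 of 78 other interferon-stimulated genes with at least 50 counts in a WT library (73.1%) and more than 2-fold higher in 8 (10.3%).

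Values that could move with the WT libraries were read beside this. The second WT library was the shallowest, with 10549358 counts against 15683480 in the first. The plasmacytoid dendritic cell list, a cell type known for high interferon output, summed to 324 and 285 CPM in KO cells, against 321 and 293 CPM in WT cells over 8 listed genes of 9. Most of that sum came from Tcf4, at 120 and 103 CPM in KO cells, against 101 and 104 CPM in WT cells, and from Runx2. Runx2 was read at 172 and 150 CPM in KO cells, against 174 and 155 CPM in WT cells. Siglech was low, at 1.79 and 0.977 CPM in KO cells, against 5.50 and 2.57 CPM in WT cells. Log2 fold changes over the list ran from -1.56 in Siglech to 0.56 in Pacsin1. The T and NK cell list summed to 99.7 and 131 CPM in KO cells, against 146 and 104 CPM in WT cells (10 of 11 genes listed), and the B and plasma cell list to 30.6 and 36.8 CPM in KO cells, against 42.8 and 30.4 CPM in WT cells (8 of 9). Each of these 3 lists was lower in the second WT library than in the first. The erythroid list summed to 48.3 and 75.4 CPM in KO cells, against 47.3 and 58.1 CPM in WT cells, higher in the second WT library. The part of depth or of any of these lists in the WT difference was not tested. Ifnb1 had 0 and 7 counts in KO cells and 0 and 3 in WT cells, and Ifng 11 and 13 counts in KO cells and 30 and 11 in WT cells. Of 5 receptor genes tested Ifnar1, Ifnar2, Ifngr2 and Il10rb stood at log2 fold changes of -0.031, 0.042, -0.019 and -0.031. Ifngr1, a chain of the interferon gamma receptor, was read at 116 and 130 CPM in KO cells, against 196 and 140 CPM in WT cells, both KO libraries below both WT libraries, at -0.45 (SE 0.19) with no call (unadjusted p = 0.0443, adjusted p = 0.986, edgeR). Of 79 other interferon-stimulated genes tested in LSK cells 0 passed, and 0 did in the lists of receptors, transducers, sensors, brakes and ISG15 conjugation (edgeR). As for the members, this is weak ground for saying that none changed. Log2 fold changes ran from -3.02 to 0.16 over 15 sensor and adaptor genes and from -1.998 to 0.38 over the 79. The lowest sensor gene, Tlr8, had 5 and 1 counts in KO cells against 27 and 22 in WT cells. The lowest of the 79, Ifi44l, had 33 and 0 counts in KO cells against 51 and 76 in WT cells. Both KO libraries lay below both WT libraries in 17 of the 79 and above them in 8.

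**Figure D5:**
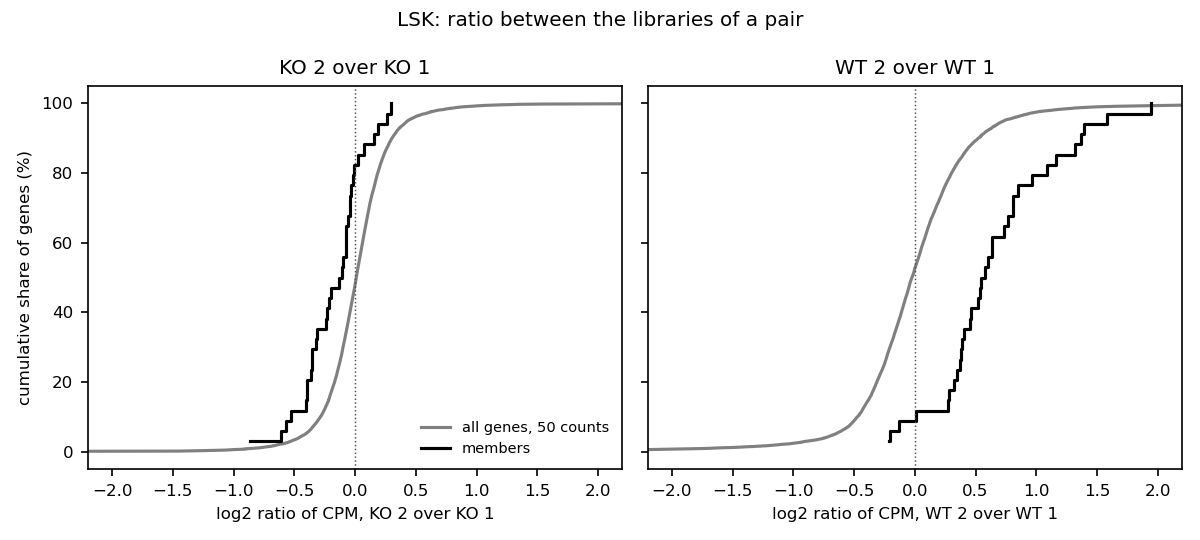
Cumulative share of genes (y axis, percent) against the log2 ratio of the second to the first library (x axis), for the KO pair (left) and the WT pair (right), with the members in black and all genes with at least 50 counts in grey. The black line is displaced to the right in the WT pair, median ratio 1.48, and slightly to the left in the KO pair, median ratio 0.92.

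The complex of STAT2 and IRF9 and the IRF proteins read a common element, and promoter windows of the mouse members were searched for it. RefSeq promoter windows of GRCm38.p6, from 250 bases before to 50 after each start, were found for 28 of 34 symbols. They were not found for Mx1, Mx2, Usp18, Oas2, Parp9 and Parp14. The IRF element was searched as GAAANNGAAA on both strands, with overlapping matches kept. It was held by 14 of 36 member windows (38.9%), where 3.44% of all 32851 windows hold it. By gene it was held by 14 of 28 members. Of the 4 matched genes that were more than 2-fold apart in WT, Isg15, Ifit3 and Oas1g held it and Irf7 did not. Of the 24 other members 11 (45.8%) held it. The gamma-activated (GAS) element, searched as TTCNNNGAA, which reads the same on both strands, was held by 9 of 36 member windows (25%), where 8.3% of all windows hold it, Irf1 and Psmb8 among them. A match describes the letters and is no measure of binding.

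In the sequences that follow, capitals mark the IRF element in the first 4, read on the opposite strand in Ifit3, and the GAS element in Irf1, each written 5′ to 3′ on the gene's own strand. The stretches lie at chr4:156200819-156200926 on the minus strand for Isg15, chr19:34583343-34583528 on the plus strand for Ifit3, chr5:120887614-120887661 on the minus strand for Oas1g, chr5:92349063-92349132 on the minus strand for Cxcl10 and chr11:53769894-53769962 on the plus strand for Irf1. The first 3 end just before the start site, and 3 overlapping matches run together in Isg15.
Isg15: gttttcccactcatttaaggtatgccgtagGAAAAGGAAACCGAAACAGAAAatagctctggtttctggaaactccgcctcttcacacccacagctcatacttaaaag
Ifit3: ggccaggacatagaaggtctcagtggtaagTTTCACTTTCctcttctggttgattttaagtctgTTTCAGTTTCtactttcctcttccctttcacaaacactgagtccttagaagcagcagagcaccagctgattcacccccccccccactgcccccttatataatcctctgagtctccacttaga
Oas1g: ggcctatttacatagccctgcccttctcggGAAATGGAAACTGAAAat
Cxcl10: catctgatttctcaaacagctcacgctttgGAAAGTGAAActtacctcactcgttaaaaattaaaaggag
Irf1: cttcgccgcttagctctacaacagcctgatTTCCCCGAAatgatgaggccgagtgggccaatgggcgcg

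The 2 experiments were set against each other in 1 model over all 8 libraries, which tests whether the change of a member in KU812 cells differs from that in LSK cells. Genes were matched by symbol alone. Species, cells and the means of ANP32B loss differ together between the experiments, so their parts in a difference cannot be told apart. Of 30 members shared by symbol and tested 0 passed (edgeR quasi-likelihood test of the interaction), where 2.21% of all 10769 genes did. The smallest p belonged to TRIM25, whose log2 fold change was -0.73 in KU812 cells and -0.082 in LSK cells, a difference of -0.63 (SE 0.16; adjusted p = 0.0721, edgeR). A further 3 differences had an unadjusted p under 0.05. OAS3 stood at 0.52 in KU812 cells and -0.20 in LSK cells, IFIT1 at -1.40 in KU812 cells and 0.025 in LSK cells, and IRF1 at 0.42 in KU812 cells and -0.15 in LSK cells. Without the first WT library the differences of TRIM25 and OAS3 were -0.68 and 1.02, where all 8 libraries gave -0.63 and 0.74. Without the second WT library that of IFIT1 was -1.95, where all 8 libraries gave -1.40.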

How the data were processed

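For each library the authors deposited a table of whole-number counts by gene symbol, with no scaling, as the file headers and values show. Per the submitters' processing notes, HISAT2, TopHat, Cufflinks and DESeq were used with GRCm38 and GRCh38, in roles the notes do not state. No source used here names the counter or its strand setting, so a gene's reads may include those of an overlapping or antisense partner. The members, lists and tests were chosen with earlier results of these data known. Each experiment was fitted on all its genes with edgeR 4.0.16 in R 4.3.3 (filterByExpr, TMM, quasi-likelihood, Benjamini-Hochberg). CPM uses TMM-scaled totals. At these depths 3 counts, the limit that a count of 0 allows, equal 0.106 to 0.284 CPM, for counting error only. SE is the unmoderated log2 coefficient over the root of F. DESeq2 1.42.0 and limma 3.58.1 were alternatives. Full values were given for members past the threshold, or the 5 with the smallest p, for members over 2-fold apart between replicates with at least 50 counts, and for up to 4 called genes of each other list. The scripts were tested on simulated data. Some genes of the pathway lists are not reported here.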

Additional observations from a re-analysis of the deposited data

How the results depend on the processing

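In LSK cells 0 genes passed with edgeR, 15 with DESeq2 and 15 with the replicate number as a block, and 0 to 830 as each library was left out (830 without the second WT library). The members called ranged from 0 to 2 and their median log2 fold change from -0.36 to 0.19. The sign turned with the second WT library left out, so that over the leave-outs Irf7 ranged from -1.02 to 0.067, Ifit3 from -1.19 to 0.39, Oas1g from -0.84 to 0.52, Oas2 from -0.69 to 0.46, Mx1 from -1.10 to 0.29, Isg15 from -0.83 to 1.12, Usp18 from -0.78 to 0.54 and Xaf1 from -0.73 to 0.083. Isg15 also stood at 0.27 with limma-voom and 0.11 with the block. Without the second KO library Isg15 and Usp18 stood at 0.012 and 0.0099. In KU812 cells the block gave 4164 genes called and 7 members, with OAS1 and PARP9 added, and leave-outs gave 1413 to 4047 genes, 1 to 7 members and a median of 0.033 to 0.23. Scaling by library totals alone split the calls into 1473 higher and 1183 lower, against 1244 and 1497. That scaling ended the calls of IRF2BP2 (adjusted p = 0.0664), MAVS (0.0764) and MB21D1 (0.0803, all edgeR). With no low-count filter IRF1 lost its call. The interaction gave 0 to 2 members over the leave-outs. Shared replicate numbers are only numbers: deviations of same-numbered libraries correlated at -0.0663 in LSK and 0.119 in KU812 cells. The causes were not tested. A lone library left in a group was taken to vary like the others.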
